A study of Saccharomyces cerevisiae with 9 samples.

Results

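Of the 2426 yeast protein-coding genes in the WT total histone MNase-Seq tables, 36 had a wide nucleosome-depleted region (NDR) upstream of the transcription start site (TSS), which is 1.48% of all genes. They were chosen by their measured signal in 61 bins of 25 nucleotides, from -500 to 1000 nucleotides around the TSS. A member had to have a mean of at least 3 RPM (mapped reads scaled to the size of the library). It also needed a run of 7 or more consecutive bins, each below 50% of that gene's own mean, with at least 1 bin of the run between 125 and 50 nucleotides upstream of the TSS. The mean over this interval, called the NDR interval below, had to lie below the mean from 0 to 75 nucleotides, where the first nucleosome of the gene is found. Of the 2404 genes with a sufficient mean, 2201 met this last condition, and the 36 members were selected from these by the run. The width and depth of the run are therefore given as a description of how the members were selected, without a test.

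The cells were wild-type Saccharomyces cerevisiae isogenic to BY4741, a laboratory strain of the S288C background, grown to an OD600 of 0.8 without any treatment. Micrococcal nuclease (MNase) cuts the DNA between nucleosomes, so that the sequenced DNA marks where histones protect it. This was 1 of the 9 samples of the series, and the RNA polymerase II and Nrd1 ChIP-exo samples were not analysed here. Each gene has a single value per bin, so that no spread between cultures could be computed and no difference below was tested against replicate error. All values at the window edges were whole multiples of 0.0300 RPM, the weight of 1 read where 33313664 reads were mapped. A count of 0 allows up to 3 reads, or 0.0901 RPM.

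At most yeast genes the promoter lies in a short stretch without a stable nucleosome, flanked by the well-placed +1 nucleosome at the TSS and the -1 nucleosome upstream. General regulatory factors such as Reb1, Abf1 and Rap1, stiff runs of A or T, and the remodeller RSC, which slides or evicts nucleosomes, are known to keep such stretches open. Where a pair of genes is transcribed in opposite directions from 1 intergenic region (divergent genes), a single NDR can serve both promoters.

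The sequences of 3 shared NDRs are shown because both genes of each pair were members and at least 100 bases could be placed between both TSSs, which was so at 3 of 5 such pairs. Each is the part of the intergenic region that lies between both TSSs however the distances from TSS to start codon are divided between the genes, as described further on. Coordinates are those of R64, the assembly of sacCer3, and each sequence is written 5′ to 3′ on the plus strand, which is the coding strand of the gene named first. Capitals mark matches on either strand to the Reb1 motif TTACCCG, to runs of 10 or more A, to the PAC motif GATGAG and to the RRPE motif AAAATTTT, both known from genes of ribosome biogenesis. They also mark the forkhead motif GTAAACA and the proteasome motif GGTGGCAAA, bound by Rpn4. The first region is chrXVI:153245-153399, between NIP7 and PUS1. The second is chrX:402591-402716, between MPS3 and BBC1, and the third is chrVII:914889-915090, between ZPR1 and YGR210C.
NIP7/PUS1: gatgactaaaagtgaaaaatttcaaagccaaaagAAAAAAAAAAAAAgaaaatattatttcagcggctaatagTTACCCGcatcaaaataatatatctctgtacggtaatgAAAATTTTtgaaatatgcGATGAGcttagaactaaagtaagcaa
MPS3/BBC1: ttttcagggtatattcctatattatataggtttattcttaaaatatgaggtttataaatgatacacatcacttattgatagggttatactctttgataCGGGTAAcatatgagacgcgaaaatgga
ZPR1/YGR210C: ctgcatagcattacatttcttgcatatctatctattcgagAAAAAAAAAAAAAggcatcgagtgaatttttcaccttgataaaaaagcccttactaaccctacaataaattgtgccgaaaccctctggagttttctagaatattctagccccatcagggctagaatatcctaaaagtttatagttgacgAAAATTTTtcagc

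Short stretches of 30 bases around single matches are shown for other members, on the strand of the gene. OKP1 (chrVII:855021-855050, minus strand) and TPM1 (chrXIV:479347-479376, minus strand) are shown for Reb1 matches, with 2 of the 3 matches of TPM1. VMA3 (chrV:100570-100599, plus strand) and MUM2 (chrII:353477-353506, minus strand) are shown for runs of A or T, RPN6 (chrIV:286790-286819, minus strand) and PRE8 (chrXIII:86841-86870, minus strand) for the proteasome motif, and FKH1 (chrIX:102390-102419, minus strand) for a forkhead match next to a PAC match.
OKP1: aacatatttttgTTACCCGgagagtcacaa
TPM1: agagcCGGGTAAagaagtCGGGTAAccatt
VMA3: cattAAAAAAAAAAAAAAAAAAAAAAcaga
MUM2: tgttttttcTTTTTTTTTTTTgctgctgtt
RPN6: ctggttccaagGGTGGCAAAtgttggtaga
PRE8: tagcttattaaGGTGGCAAAattgtccccg
FKH1: tccatgGATGAGGTAAACAaaaaaatggaa

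Not all 36 members had a run with reads throughout. At 7 members at least 1 bin of the run was under the 3-read limit, and at 5 of these the run reached the upstream end of the window, so that its length is a lower bound. A bin under 3 reads somewhere in the window occurred at 168 of the 2426 genes, or 6.92%. SRD1, a gene of ribosomal RNA processing (chromosome III, coding sequence from 148238 to 148903), was at 0 RPM from -500 to -50 nucleotides and reached 10.3 RPM at 50 nucleotides. All of its 50-mers within 500 nucleotides upstream of the coding sequence occur once in the genome, and whether the DNA of the strain differs from the reference there was not tested. HMRA1, the silent copy of the mating-type gene a1 (chromosome III, 293835 to 294321), was at 0 RPM from -500 to -150 nucleotides, and 21.7% of its upstream 50-mers were unique. KEI1, a component of inositol phosphorylceramide synthase (chromosome IV, 1212848 to 1213614), was at 0 RPM from -500 to -225 nucleotides, with 50.1% unique 50-mers and a long terminal repeat of a transposon upstream.

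YPS6, a putative GPI-anchored aspartic protease (chromosome IX, 430498 to 432111), had the longest run, 35 bins from -500 to 350 nucleotides. The run crossed the TSS, averaged 0.181 RPM or 5.01% of the gene's mean, and no +1 peak was seen at YPS6, whose bins from 0 to 75 nucleotides held 0.113 RPM. At this gene 65.9% of the upstream 50-mers were unique. YNL035C (chromosome XIV, 568522 to 569691) had a run of 18 bins at 0.739 RPM, with a tRNA gene 175 nucleotides upstream and 85.6% unique 50-mers. SRD1 (20 bins, 0.0710% of the gene mean), HMRA1 (17 bins, 2.75%), KEI1 (17 bins, 3.90%), YPS6 and YNL035C (12%) were the 5 members with the lowest run relative to their gene mean. Few sequenced nucleosomes and few reads that can be placed cannot be told apart at these 5 genes. Unique sequence was complete at SRD1, where a difference between the DNA of the strain and the reference was not tested. The other 2 members with bins under 3 reads were PRE8, with 85.8% unique 50-mers, and MUM2, with 100%. Results on the remaining 29 members are given beside those of all 36 where they differ.

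The 29 members with reads in every bin of the run had runs of 7 to 12 bins, and their mean profile is plotted beside that of genes with a narrow depletion. Of all 36 members, 11 had a run of 7 bins, 12 had a run of 8 bins, and 8 had a run of 9 to 12 bins. The rule itself limits where the downstream end of a run can lie, since a run must reach the NDR interval. Among the 29 members the first bin of the run lay between -325 and -175 nucleotides (median -225), and the last between 125 nucleotides upstream and the TSS itself (median -50). Of the 36 members, 34 had the last bin between 125 and 25 nucleotides upstream, with YPS6 and SWR1 outside this range.

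**Figure D1:**
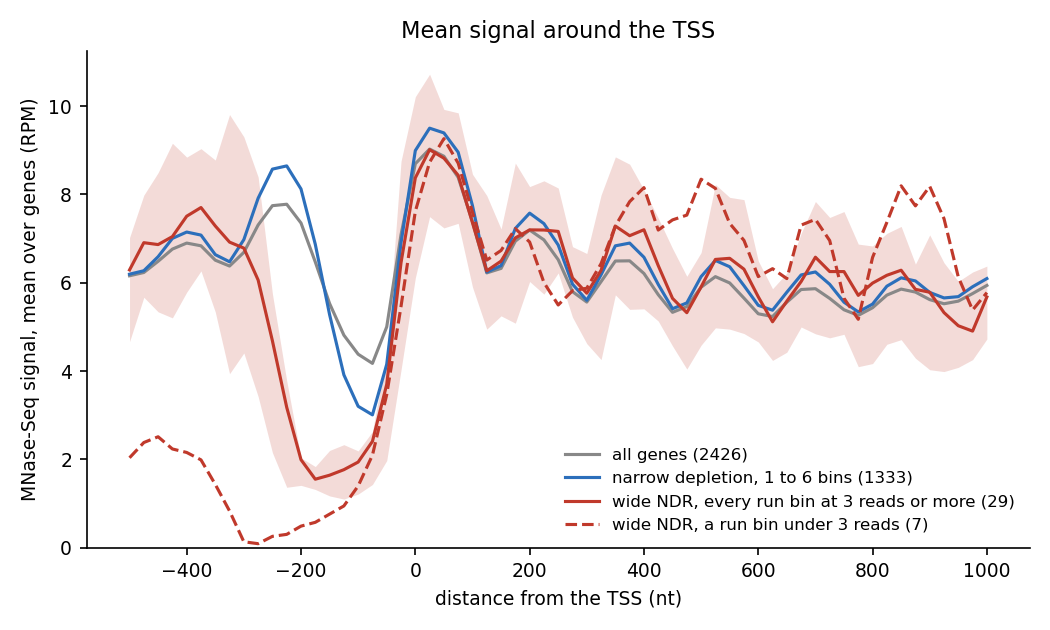
MNase-Seq signal in RPM, averaged over genes, against the distance from the TSS in nucleotides. Lines are means of all 2426 genes, of the 1333 genes with a run of 1 to 6 bins, and of 29 and 7 members of the wide group, and the band spans the quartiles of the 29 members. The 29 members fell to 1.55 RPM at -175 nucleotides, while their +1 peak of 9.01 RPM at 25 nucleotides lay beside that of all genes, 9.03 RPM.

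The signal within the run was low but countable. Among the 29 members the mean over the run ranged from 1.11 to 2.42 RPM (median 1.69), which is a coverage of 36.9 to 80.8 reads and 16.5% to 40.9% of the gene's mean. The counting interval of MSS1, the lowest of the 29, was 26 to 50.9 reads around a coverage of 36.9, and that of FKH1, the highest, was 64.1 to 100.4 around 80.8 (exact Poisson, 95%). These intervals treat the mean coverage over the run as 1 read count, which only approximates the counting error of a run of several bins. They cover no other error. In the mean profile the members' NDR was both deeper and farther from the TSS than that of genes with a narrow depletion. The minimum of the narrow group was 3.01 RPM at -75 nucleotides. The first upstream peak lay at -375 nucleotides with 7.71 RPM in the 29 members and at -225 nucleotides with 8.65 RPM in the narrow group. These contrasts describe the selection, because run length in the same bins defined both groups. The +1 peak of both groups lay at 25 nucleotides.

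Within single genes, the distance from the highest bin upstream of the run to the highest bin downstream ranged from 275 to 550 nucleotides (median 375) over the 31 members whose run did not reach the window's end. It had a median of 275 nucleotides, with quartiles of 225 and 300, in the 1333 genes with a narrow depletion. Both bins were sought within a fixed distance of the run. At MSS1, which gave the 550 nucleotides, both bins lay at the far end of that distance. The distance between them thus contains the run length that defined the groups, and the contrast describes the selection. The signal from 0 to 75 nucleotides had a median of 9.23 RPM in the 36 members, 9.19 RPM in genes with a narrow depletion and 8.77 RPM in all genes. It exceeded the gene's own mean at 32 members. MSS1, an enzyme of mitochondrial tRNA modification, was among the other 4 members, with 2.39 RPM or 35.8% of its mean. Its highest bin downstream lay at 150 nucleotides, the last bin searched, with 6.88 RPM. Beyond it the signal of MSS1 rose further, to 12.6 RPM at 400 nucleotides.

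**Figure D2:**
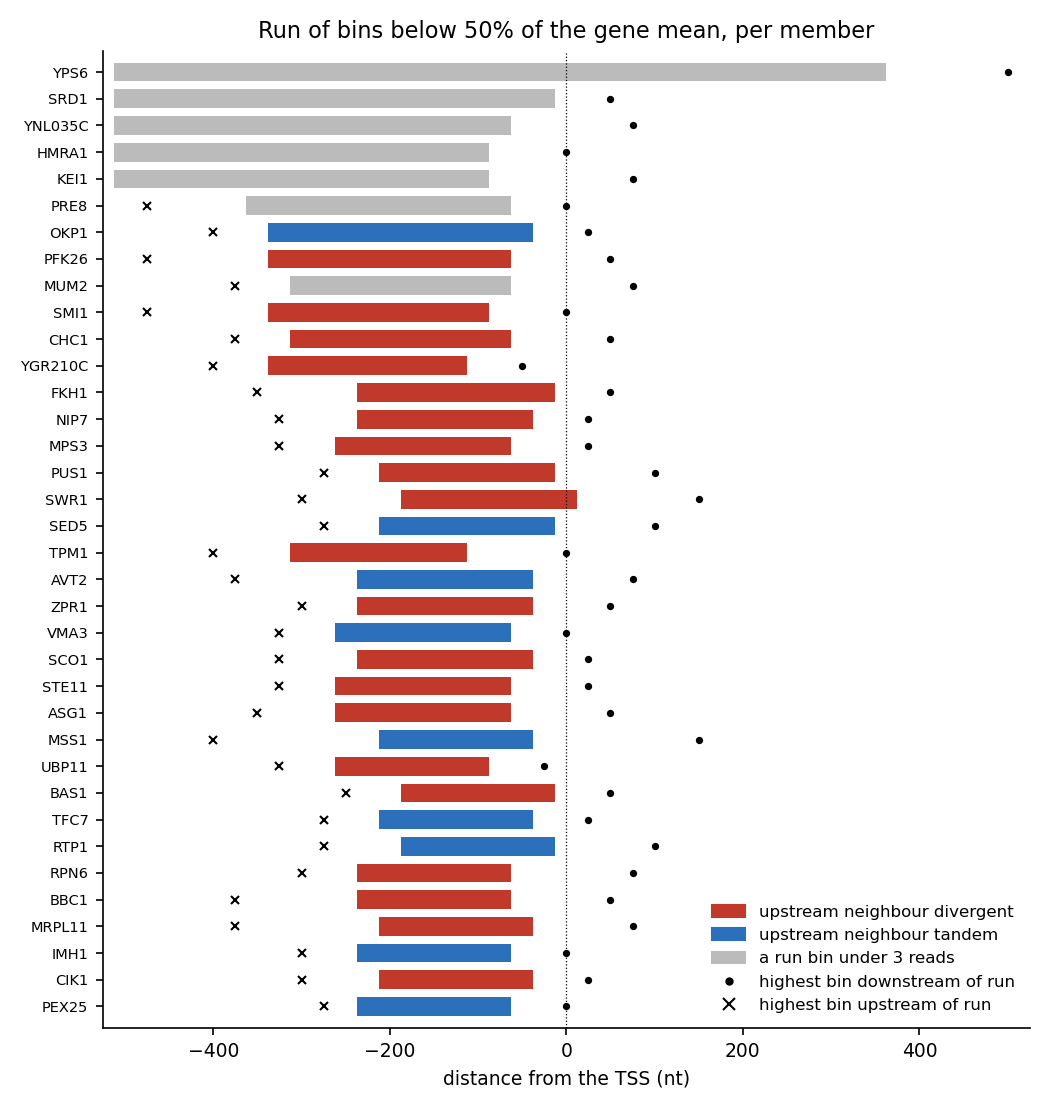
Run of bins below 50% of the gene mean for each of the 36 members, against the distance from the TSS in nucleotides. Colours give the direction of the upstream neighbour or mark members with a run bin under 3 reads. Dots and crosses mark the highest bin within a fixed distance on each side of the run. The downstream ends lie between 125 nucleotides upstream and the TSS at 35 members, a range that the rule limits, and the upstream ends between -500 and -175.

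The widest runs with an upstream boundary within the window belonged to PRE8 and OKP1, with 12 bins each. OKP1 encodes a kinetochore protein of the COMA complex (chromosome VII, 853675 to 854895). Its signal fell from 6.15 RPM at -400 nucleotides to 1.08 RPM at -250, stayed at or below 2.88 RPM up to -50 and rose to 10.7 RPM at 25. PRE8 encodes an alpha subunit of the 20S proteasome (chromosome XIII, 85987 to 86739), and its run from -350 to -75 nucleotides averaged 0.955 RPM, with bins at 0 RPM from -275 to -225. PFK26, a 6-phosphofructo-2-kinase, followed with 11 bins at 2.12 RPM. CHC1, the clathrin heavy chain, MUM2, a protein of mRNA methylation in meiosis, and SMI1, which takes part in cell wall synthesis, had 10 bins each, at 1.91, 1.25 and 1.57 RPM. Each of these 6 genes had its upstream summit at or beyond -375 nucleotides.

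The depletion was not always centred in the same place. SWR1, the ATPase of the complex that deposits the histone variant H2A.Z, had its run from -175 to 0 nucleotides. This was the closest to the TSS of the 36 except YPS6. Within the fixed distance searched, the highest bin of SWR1 downstream lay at 150 nucleotides, with 11.8 RPM, and farther on it reached 13.4 RPM at 300. At TPM1, the major tropomyosin, the run lay from 300 to 125 nucleotides upstream, with a minimum of 0.330 RPM at -250. At YGR210C the run lay from 325 to 125 nucleotides upstream and touched the NDR interval with 1 bin only. The NDR interval there held 7.36 RPM, against 7.48 RPM from 0 to 75, the smallest difference among the members other than YPS6.

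At the threshold the choice of members was arbitrary within counting error. The best 7-bin window of a gene was described by its highest bin as a percentage of the gene mean. It was 47.2% at SED5, 47.4% at RPN6, 48.1% at YGR210C, 49.2% at ASG1 and 49.6% at PEX25, the 5 members just inside. It was 50.2% at ARO3, 50.6% at HOT1, 50.9% at TCM62, 51% at both ETT1 and ULP1, the 5 genes just outside. The limit of 50% corresponded to a coverage of 77.4 reads at SED5 and 119 reads at TCM62, where counting error alone spans 39.5% to 62.5% and 41.4% to 59.8% of the gene mean. The run of 7 bins was met without membership at 5 further genes. UIP3 had a lower signal from 0 to 75 nucleotides than in the NDR, and COS6, COS8, PHO12 and YHL050C had means under 3 RPM.

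A divergent upstream neighbour, which the rule did not use, was present at 24 of the 36 members, or 66.7% (exact binomial 95% interval 49% to 81.4%). The share was 50.9% over the 2425 genes found in R64 and 51.5% among genes with a narrow depletion, and both lie within the members' interval. It was 69% among the 29 members with reads throughout, and with wider limits of the rule it was 50.7% among 71 genes (bins below 60% of the gene mean) and 56.5% among 69 genes (runs of 6 bins), against 66.7% here. Members that face each other share 1 region, and when each intergenic region was counted once, 19 of 31 regions of members were divergent (61.3%) against 1000 of 2191 in all genes (45.6%). The distance to the upstream neighbour had a median of 470 nucleotides in members, 387 in the narrow group and 455 in all genes. With a divergent neighbour at 400 to 600 nucleotides, 10 of 229 eligible genes were members (4.37%). With a tandem neighbour at that distance 3 of 306 were (0.980%). Both genes of the pairs ASG1 and FKH1, ZPR1 and YGR210C, and MPS3 and BBC1 are among the 10. At 600 to 1000 nucleotides, 6 of 301 genes with a divergent neighbour and 0 of 159 with a tandem neighbour were members. Both BAS1 and UBP11, which share 1 region, are among the 6. Regions were not counted once in these comparisons by distance. At 200 to 400 nucleotides the shares were 1.06% and 1.44%, below 200 nucleotides they were 4.17% and 3.57%, and above 1000 nucleotides 1.31% and 0%, each for divergent and then tandem neighbours.

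In 12 of the 24 divergent members the neighbour was also in the tables, and in 10 of these 12 it was itself a member, which gave 5 pairs. The profiles of such a pair hold the same reads from both sides, so that the genes of a pair are not independent. Each pair was matched by reversing one profile and moving it until both agreed best. Over 198 divergent pairs of the tables, 150 matched with a median difference under 5%, and the distance between the TSSs was shorter than that between the start codons by a median of 125 nucleotides (quartiles 75 and 190), or 62.5 per gene. The windows are thus placed on transcription starts and not on start codons, and a bin can be given a genome position only within the length of the 5′ leader.

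**Figure D3:**
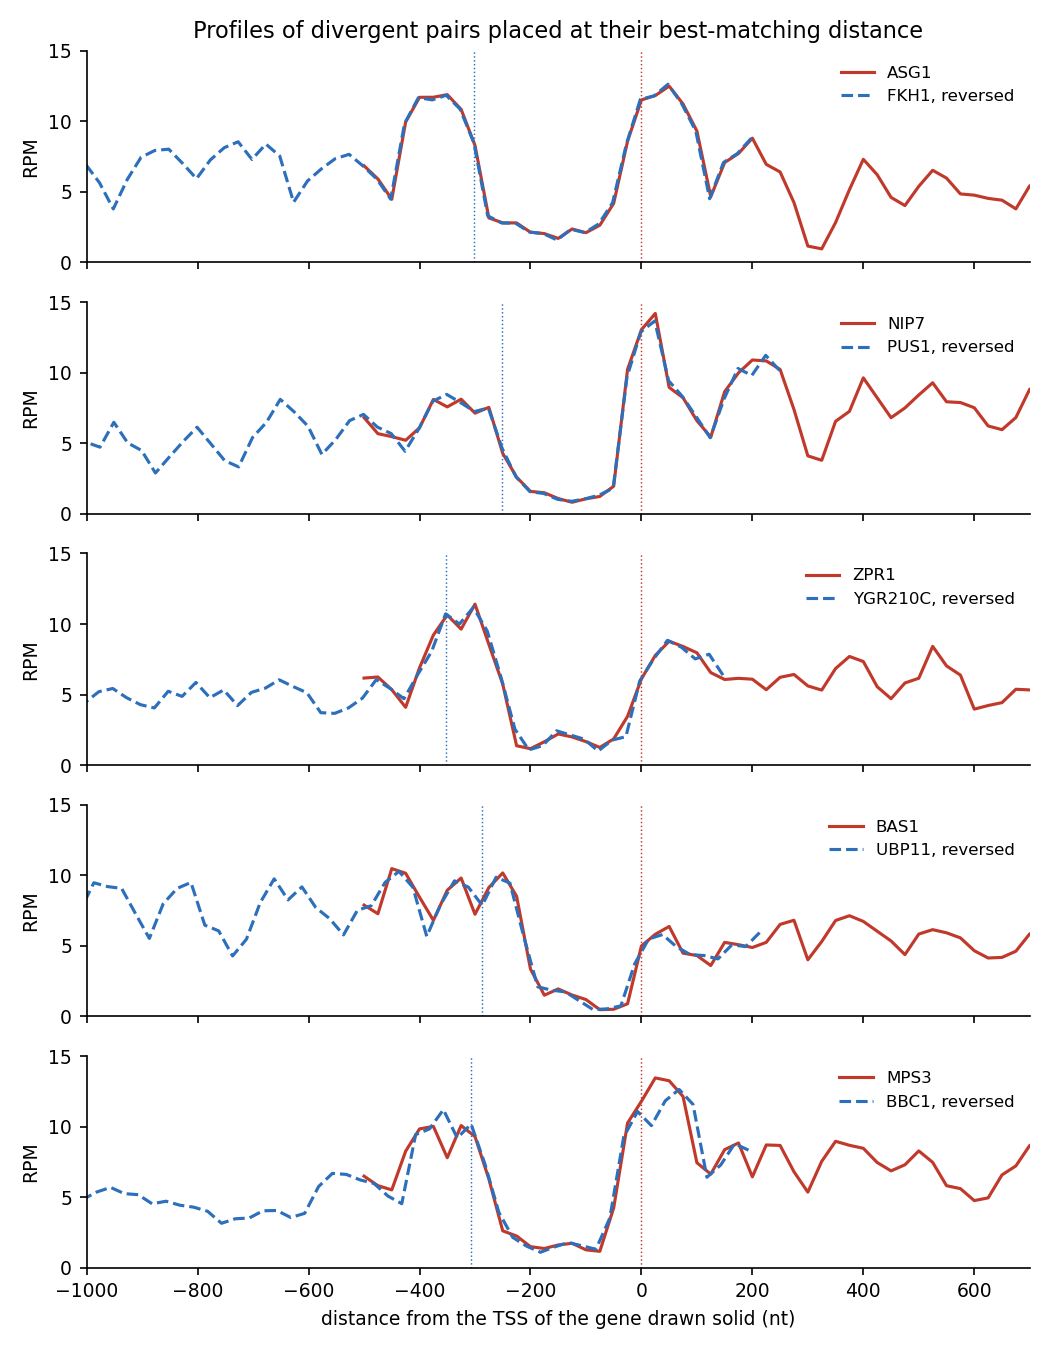
Signal of the 5 divergent pairs in which both genes were members, in RPM, against the distance in nucleotides from the TSS of the gene drawn solid. The dashed line is the other gene, reversed and placed at the matched distance, and dotted lines mark both TSSs. In each panel a single trough lies between both TSSs, with a peak on each side.

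NIP7, required for biogenesis of the large ribosomal subunit (chromosome XVI, 153495 to 154040), and PUS1, a tRNA pseudouridine synthase (151515 to 153149), lie 345 nucleotides apart. Their profiles matched with a median difference of 1.84% at 251 nucleotides between the TSSs. The run of NIP7 extended from -225 to -50 nucleotides, and that of PUS1, turned round, from -226 to -51, so that both genes reported the same trough. Its floor was 0.813 RPM in the profile of NIP7 and 0.880 RPM in that of PUS1, and the peak on the NIP7 side was 14.2 RPM in the profile of NIP7 and 13.7 RPM in that of PUS1. The peak on the PUS1 side was 8.12 RPM in the profile of NIP7, at -325 nucleotides, and 8.46 RPM in that of PUS1, at 100 nucleotides. The Reb1 match and the run of 13 A in the sequence of this region fall within the run of NIP7 however the 95 nucleotides of leader are divided between both genes.

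FKH1, a forkhead transcription factor of the cell cycle (chromosome IX, 100781 to 102235), and ASG1, a zinc cluster regulator (102782 to 105676), matched with a median difference of 1.19% at 302 nucleotides between the TSSs. Their runs shared 173 nucleotides, with a floor of 1.59 RPM at FKH1 and 1.70 RPM at ASG1. ZPR1, a zinc finger protein (chromosome VII, 915241 to 916701), and YGR210C (913503 to 914738) shared 175 nucleotides, and the runs of MPS3, a protein of the nuclear envelope (chromosome X, 402897 to 404945), and BBC1, of actin patches (398937 to 402410), shared 150. BAS1, a Myb-type regulator of purine and histidine synthesis (chromosome XI, 635851 to 638286), and UBP11, a ubiquitin protease (633026 to 635179), shared 138. The value of 138 rests on a match with 385 nucleotides of leader for both genes together, near the largest sum tried, 400. The trough of YGR210C was the same as that of ZPR1, where it lay from -225 to -50 nucleotides. The other 2 divergent neighbours in the tables were not members. CHS2, next to SCO1, and MOB1, next to PFK26, had no bin below 50% of their mean in the NDR interval. The matched distances between the TSSs were 371 and 454 nucleotides. The match of CHS2 and SCO1 had a median difference of 6.48%, over the 5% limit, so that its distance is less certain. Placed at these distances, the runs of SCO1 and PFK26 lie upstream of the neighbour's NDR interval, so that the neighbours need not lack the trough.

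In the 300 bases upstream of the start codon, the Reb1 motif TTACCCG was found at 10 of the 36 members, or 27.8% (exact binomial 95% interval 14.2% to 45.2%). The share was 9.69% over all 2425 genes and 12.5% among genes with a narrow depletion, and both lie below the members' interval. The 10 members were OKP1, PFK26, NIP7, PUS1, MPS3, BBC1, TPM1, VMA3, RTP1 and IMH1, in 8 of 31 distinct regions, and none of them belonged to the 7 members with bins under 3 reads. Counted per region the share was 25.8% (11.9% to 44.6%), an interval that contains the 12.5% of the narrow group. In 200 bases upstream the motif was at 7 members (19.4%, 8.19% to 36%), and the 9.38% of the narrow group lies within that interval. TPM1 had 3 matches within its 300 bases, and the matches of the 10 members lay between 285 and 128 bases upstream of the start codon. Both strands were searched for every motif, a match is a description of the letters only, and binding was not measured. The intervals treat members as independent, although the genes of a pair share bases.

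Runs of 10 or more A on either strand were found at 12 members, or 33.3% (18.6% to 51%), against 18.8% of all genes and 21.5% of the narrow group. VMA3, the proteolipid subunit of the vacuolar ATPase, had the longest among the members, 22 bases, beginning 195 bases upstream of its start codon, and a Reb1 match from 217 to 211 bases upstream. SED5, a Golgi t-SNARE, had 2 runs of 15, and RPN6 and ASG1 had runs of 14. NIP7, PUS1, VMA3 and RTP1 carried both a Reb1 match and such a run. Shorter runs of 7 or more A were at 61.1% of members and 53.4% of all genes, and the GC content of the 300 bases had a median of 33% in members, 34.7% in the narrow group and 35.3% in all genes.

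**Figure D4:**
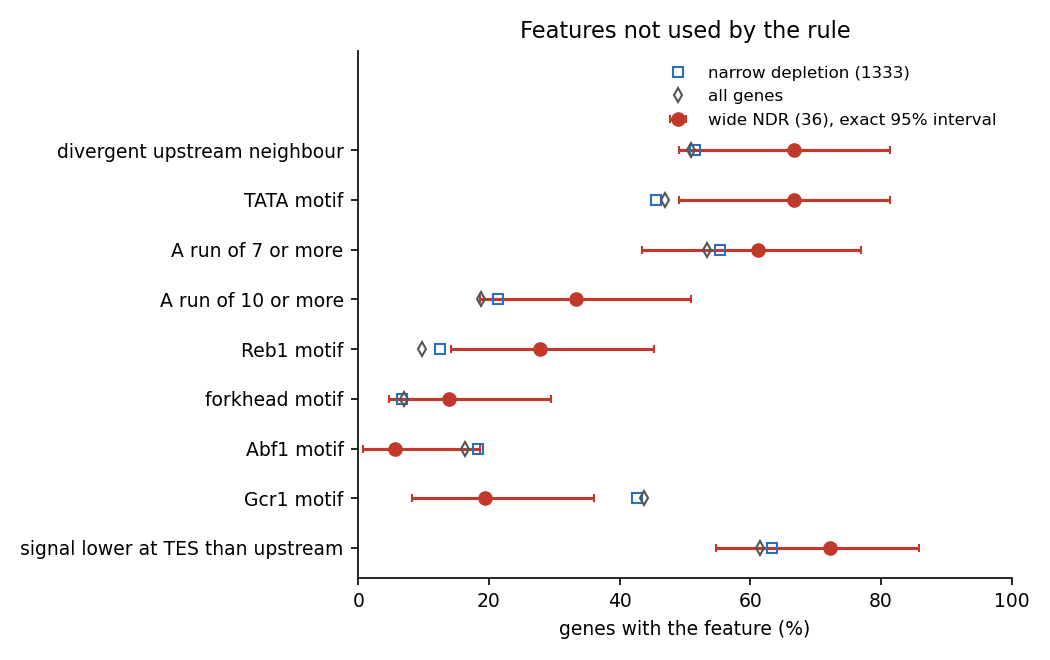
Percentage of genes with each feature in the 36 members (dots, with exact binomial 95% intervals), in genes with a narrow depletion (squares) and in all genes (diamonds). Motifs were searched in the 300 bases upstream of the start codon. The Reb1 motif, at 27.8% of members and 9.69% of all genes, and the Gcr1 motif, at 19.4% and 43.8%, are those for which both other groups lie outside the members' interval in this window, together with the TATA motif, at 66.7% and 46.9%. With 200 bases this held for none of these 3 motifs.

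The other motifs differed among themselves. The TATA motif TATAAA was at 24 members (66.7%, 49% to 81.4%) and at 46.9% of all genes, whereas in 200 bases it was at 36.1% of members, 36.2% of all genes and 34.3% of the narrow group. The motif of Abf1, CGT and TGA with 6 bases between them, was at 2 members, RPN6 and UBP11 (5.56%, 0.680% to 18.7%), against 16.3% of all genes. The Rap1 motif ACCCANACA was at 0 members, which allows a share of up to 9.74% (exact binomial), against 1.90% of all genes, and the RSC subunit motif CGCGC was at 6 members (16.7%) against 11.7%. The short motif of the glycolytic regulator Gcr1, CTTCC, was at 7 members (19.4%, 8.19% to 36%), against 43.8% of all genes, and in 200 bases at 19.4% of members, 31.2% of all genes and 29.6% of the narrow group. The forkhead motif was at 5 members, SWR1, OKP1, BBC1, BAS1 and FKH1 itself (13.9%), against 6.93%. In all, 20 motifs were searched, and the members were too few for most of them to give more than the count.

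The proteasome motif GGTGGCAAA was at 2 members, RPN6, a subunit of the 19S lid, and PRE8, against 36 of all genes (1.48%). The ribosome biogenesis motifs PAC and RRPE were at 7 and 4 members, or 19.4% and 11.1%, close to 19.5% and 12.1% of all genes. The motifs of Gcn4 (TGACTCA) and Mbp1 (ACGCGT) were at 0 members, against 2.80% and 3.84% of all genes, both below the 9.74% that a count of 0 of 36 allows.

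A tRNA gene lay within 500 nucleotides upstream of 3 members, MSS1, PEX25 and YNL035C (8.33%, 1.75% to 22.5%), against 1.90% of all genes. The same stretch held a replication origin at 0 members and at 2.14% of all genes. At MSS1 and PEX25, a peroxisome biogenesis gene, 93.3% and 93.6% of the upstream 50-mers were unique, and the part of unplaced reads in their runs was not tested. At least 99% of upstream 50-mers were unique at 29 of the 36 members (80.6%) and at 97.5% of all genes.

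Members of the larger gene families were few. Of 111 cytosolic ribosomal protein genes in the tables, 0 were members, and 0 of 25 ribosome biogenesis factors named UTP, NOP, NOC, NSA or RIX. Of 11 genes of glycolysis and fermentation, 21 heat shock chaperones, 6 histone genes, 38 genes of amino acid biosynthesis, 21 RNA polymerase II subunits and general factors and 17 termination factors, 0 were members. At a background of 1.48% only the first of these lists is large enough for more than 1 member to be anticipated. The rule scales with each gene's mean, and the NDR of the ribosomal protein genes was not low relative to their mean, with a median of 94.2% of it (4.95 RPM), against 70.2% (4.38 RPM) in all genes. The proteasome list gave 2 of 19 genes, RPN6 and PRE8. PRE8 was among the 7 members with bins under 3 reads, and RPN6 lay just inside the threshold, at 47.4%. Under some alternative rules the count fell to 1 or 0, and under others it stayed at 2. The mitochondrial ribosome list gave 1 of 26, MRPL11, a protein of its large subunit, and the list of sequence-specific transcription factors gave 1 of 31, FKH1. ASG1 and BAS1, also sequence-specific regulators, are members that this list does not hold. Each of the hexose transporter, phosphate, cyclin and cell wall lists gave 0.

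The remaining members had diverse roles and runs of 7 or 8 bins. Gene expression was represented by TFC7, a subunit of the RNA polymerase III factor TFIIIC (1.58 RPM over the run), and RTP1, which takes part in nuclear import of RNA polymerase II (1.41 RPM). Membrane traffic and transport were represented by SED5 (1.31 RPM), the golgin IMH1 (1.97 RPM), VMA3 (1.88 RPM) and the vacuolar transporter AVT2 (2.09 RPM). Others were CIK1, which guides the kinesin Kar3 (2.02 RPM), STE11, a kinase of the mating and osmotic stress pathways (2.09 RPM), SCO1, a copper chaperone of cytochrome oxidase (2.06 RPM), and PEX25 (1.75 RPM). Members were found on 13 of the 16 chromosomes, with 0 to 5 each, and chromosome VII had 5 of its 228 genes.

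The table aligned at the transcript end site (TES) was not used to choose the members. Signal from -30 to 80 nucleotides was lower than signal from -140 to -70 nucleotides at 26 of 36 members, or 72.2% (54.8% to 85.8%), against 61.5% of all genes and 63.2% of the narrow group. The ratio of the upstream to the TES signal had a median of 1.18 in members and 1.16 in all genes, and it exceeded 2 at 8 members (22.2%) and at 19.7% of all genes. The quartiles of this ratio were 0.913 and 1.85 in members and 0.848 and 1.79 in all genes, so that the middle range of both nearly coincided.

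**Figure D5:**
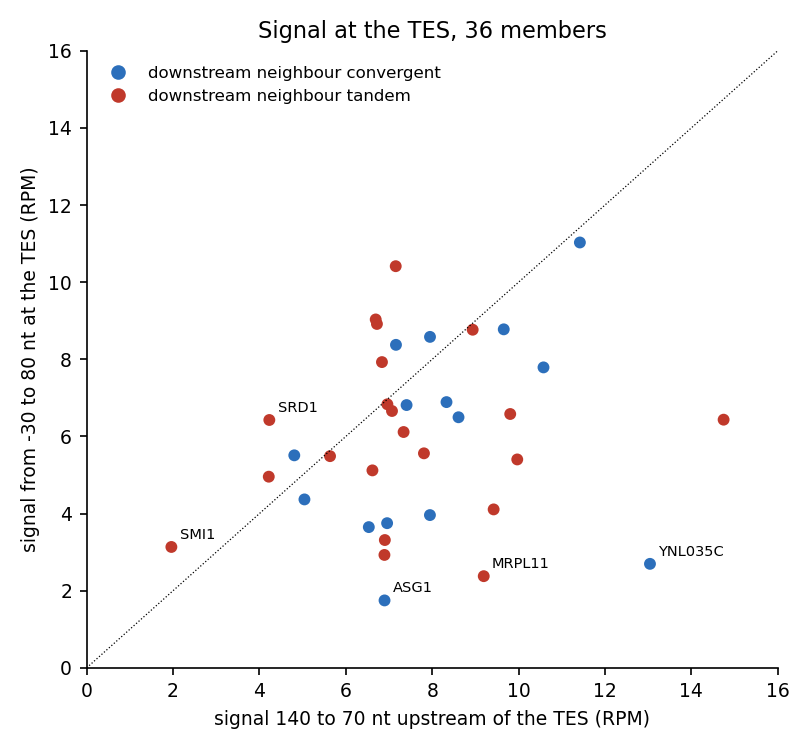
Signal from -30 to 80 nucleotides at the TES against signal 140 to 70 nucleotides upstream of it, both in RPM, for the 36 members, coloured by the direction of the downstream neighbour. The dotted line marks equal values. Of the 36 members 26 lie below the line, with YNL035C, ASG1 and MRPL11 farthest from it in ratio.

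The largest ratios belonged to YNL035C, with 13 RPM upstream and 2.70 RPM at the TES, ASG1, with 6.90 and 1.75 RPM, and MRPL11, with 9.19 and 2.38 RPM, which are ratios of 4.84, 3.95 and 3.87. The smallest were 0.626 at SMI1, with 1.96 and 3.13 RPM, and 0.658 at SRD1, with 4.23 and 6.43 RPM. The 2 genes of a pair could differ widely, with a ratio of 0.741 at FKH1 and 3.95 at ASG1, which share 1 NDR. SRD1, HMRA1, KEI1 and YPS6, whose upstream bins held few or no reads, had a mean of 7.05, 7.63, 6.34 and 7.84 RPM in the TES window, where the median gene had 6.74 RPM. HMRA1 was also at or under 0.120 RPM from 600 to 750 nucleotides downstream of its TSS. Coding sequences of members had a median length of 1449 nucleotides, as in all genes.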

How the data were processed

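The authors treated chromatin of WT cells with MNase and sequenced it by SOLiD. Reads were aligned to sacCer3 with bfast, and ngs.plot gave the coverage of each gene. The deposited coverage signal is in RPM, in 101 columns per gene around the TSS and around the TES. In the 20 outermost columns at either end the edge value recurs, and these served only to find the depth. Per the methods, the average gene plots drew on 2 biological replicates of each genotype, and whether the tables pool these is not stated. The ngs.plot version, read extension and annotation are not given in the sources used here. Extension and binning widen peaks and raise troughs, and thus narrow measured depletions.

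Bins were spread evenly over the window, and values under the worth of 1 read were kept as deposited. A level given as 0 RPM can therefore stand for a rounded value. Coding sequences, neighbours, unique 50-mers, GC content and motifs were taken from R64, where 2425 of 2426 genes were found by name. Genes with a narrow depletion had 1 to 6 bins below 50% of their mean in the same place. Intervals of shares are exact binomial over genes, which are not replicates. No test between groups was made, because 1 sample with a single set of values was analysed. The 10 members with the longest run, the 5 with the lowest run relative to the gene mean, the 5 genes on each side of the threshold, list members and pairs were named by rule, and other members were named to account for each of them. The members, lists and motifs were chosen with earlier results of these data known. The computations were tested on simulated data with known runs, distances and motifs. Software was matplotlib 3.10.9, pandas 2.3.3, scipy 1.17.1 and numpy 2.4.6 under Python 3.11.15.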

Additional observations from a re-analysis of the deposited data

How the results depend on the processing

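Of 191 values computed under alternatives, 178 stayed inside the main interval or within 1.5 times the main count, 13 moved and 0 reversed. The number of members depended most on the limits of the rule. It was 15 with bins below 40% of the gene mean, 71 below 60% and 69 with a run of 6 bins, and all 36 members were among the 71 and the 69. It lay between 25 and 39 under the other planned rules and was 52 with the same level of 3.15 RPM for every gene, an alternative chosen after seeing the data, under which 0 cytosolic ribosomal protein genes were members. The share with a divergent neighbour was 86.7% among the 15, 50.7% among the 71 and 56.5% among the 69. The share with a tRNA gene upstream was 0% among members with unique 50-mers and among those with a gap of at least 300 nucleotides. The share with the TATA motif was 36.1% in 200 bases, against 36.2% of all genes and 34.3% of the narrow group, so that the difference seen in 300 bases was not present there. The other 6 values that moved were counts of 0 or 1 proteasome or ribosomal protein genes. The cause was not tested for any of the 13. Dividing each gene by its own TES mean leaves the TES ratio unchanged and was not listed. Without the 7 members with bins under 3 reads, also chosen after seeing the data, 34.5% had the Reb1 motif. The Reb1 share was 19.4% in 200 bases and 30.6% in 400, against 6.97% and 11.4% of all genes, and the 9.38% of the narrow group in 200 bases lies within the members' interval of 8.19% to 36%. It was 15.5% among the 71 and 17.4% among the 69. No paired analysis was possible because the tables hold a single sample. The single set of values limits each of them to this sample, and 25-nucleotide bins limit each position.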

Other observations

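Wide runs of low signal also occurred away from the promoter. Among genes with a mean of at least 3 RPM, 130 had a run of 7 or more bins below 50% of their mean that began downstream of -50 nucleotides, and 30 had one that ended more than 125 nucleotides upstream of the TSS. Of the 130 genes with a downstream run, 66 were cytosolic ribosomal protein genes, 6 were heat shock chaperones, 4 were histone genes and 3 were of glycolysis and fermentation. Among the 2404 genes with such a mean, these families held 107, 18, 6 and 9 genes in the same order. The median signal over the gene body was 3.79 RPM in these 130 genes, against 5.98 RPM in all genes. The low bins that chose these genes can lie in the gene body, so that this contrast is not independent of the choice. Of these 130, 1 was a member of the wide NDR group. These genes were found from their values, and no explanation was tested.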
